A study of Homo sapiens and Mus musculus with 20 samples.

Results

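In ARP1 cells with wild-type KDM6A, 3434 distal regions carried H3K4me1 without H3K27ac, of 95729 H3K4me1 regions in all. They were found by a rule. The H3K4me1 region had a −log10 q of at least 5, lay over 10 kb from both ends of each of 19970 protein-coding genes, and overlapped no H3K27ac region of the same cells by even 1 bp. Of the H3K4me1 regions, 42217 met the q limit and 23812 were also distal. Of the distal regions, 85.6% carried H3K27ac and 14.4% did not. The values that chose them, the wild-type (WT) H3K4me1 and H3K27ac lists, are given below as a description only. At the limits of the rule, the lowest −log10 q inside was 5.32 and the highest outside 4.44. The region closest to a gene end lay 10038 bp away, against 9923 bp for the farthest one left out. A total of 10 regions had WT H3K27ac within 10 bp without touching it, while 17 distal regions were counted as acetylated through an overlap of at most 10 bp.

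The study profiled histone marks and KDM6A by ChIP-seq in ARP1, a human multiple myeloma cell line, and KDM6A also in the line named KARPAS. ARP1 was wild type for KDM6A, KDM6A knock-out (KO), or JmjD-dead, a KDM6A whose demethylase domain is inactive and which the sample titles name H1146E. All 3 genotypes have H3K27ac, H3K27me3 and input libraries, while H3K4me1 and KDM6A libraries cover WT and KO. The title of the KO H3K4me1 library and the file header of the KO KDM6A library carry a further mark, E4, that the labels do not explain. The title and header of the KO H3K27ac library lack it. An antibody against the HA tag was used on cells labelled wild type, whose label names no tag, and on an HA-tagged KDM6A line whose genotype label reads knock-out. The labels do not say how the lines were made, whether a line is 1 clone, or how much tagged or JmjD-dead protein it holds. Each of the 16 human libraries stands alone in its group, so differences between genotypes have no replicate check and no p-value. Intervals are exact Clopper-Pearson 95% intervals of a share of regions and cover counting error only. In bulk chromatin, a mark on fewer cells and a weaker mark in each cell cannot be told apart.

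H3K4me1 is laid down at enhancers by the KMT2C and KMT2D methyltransferase complexes, of which KDM6A is a subunit. H3K27ac, added by p300 and CBP, marks the enhancers that are active. An enhancer with H3K4me1 and no H3K27ac is commonly called primed when it lacks H3K27me3, the Polycomb mark that KDM6A removes, and poised when it carries it.

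Depth was 25568819 to 34023091 fragments for H3K4me1 and H3K27ac, 5026016 to 10449019 for H3K27me3, and 11898708 to 37389280 tags for KDM6A and HA. The inputs held only 222942 to 724630 fragments. At the gene ends, 19 of 20 plasma cell genes had WT H3K27ac within 2.5 kb (FCRL5 had none), against 10 of 20 B cell genes, 7 of 14 T and NK cell markers, 4 of 14 markers in the myeloid list and 5 of 14 in the epithelial list. Among those with none were MS4A1, CD3D, CD14, MPO, EPCAM and CDH1, and among those with it PAX5, CD3E, CD4, CEBPA, COL1A1 and VIM.

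The 3434 regions were of 2 kinds by place. Of these, 1276 lay in bins of 1 Mb that were dense in regions of an ARP1 KDM6A, HA or input list (over 10 times that list's median count), and 117 on an input region. In all, 1290 regions (37.6%) lay in such a bin or on input, against 20.2% of the acetylated distal regions. The bin with the most, chromosome 5 from 48 to 49 Mb, held 50 of them. All 50 met a KDM6A region in WT and an HA region in WT cells, 46 an HA region in the tagged line and 34 a KDM6A region in KO. Bins at 25 to 26 Mb of chromosome 19 (48 regions) and 47 to 48 Mb of chromosome 5 (40 regions) followed. These dense regions had a median of 1175 kb to the nearest gene end. The other 2144 regions (62.4%) had a median of 58.6 kb and are the set described in most detail. The dense bins were found partly from the KDM6A and HA lists, so the KDM6A and HA shares of the 2144 depend in part on that choice.

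No genome of this build was used here, so the regions' own sequences are not printed. Where a region reached an annotated start, the RefSeq promoter window (250 bases before to 50 after the start, GRCh38.p14) gives its letters. Of 34961 such windows, 67 windows of 59 genes met one of the 2144 regions, and 15 lay wholly inside one. The 4 shown are 1 promoter of a protein-coding gene and 3 of long non-coding RNAs. These 4 genes were chosen after their values were seen, as starts with H3K27ac in a mutant or with HA. Capitals mark bases inside an H3K4me1 region. IL21R, an interleukin receptor gene of lymphocytes, has a start whose upstream window is chr16:27427021-27427270 (plus strand, the 250 bases before the start), and 2 of the regions reach into it.
IL21R: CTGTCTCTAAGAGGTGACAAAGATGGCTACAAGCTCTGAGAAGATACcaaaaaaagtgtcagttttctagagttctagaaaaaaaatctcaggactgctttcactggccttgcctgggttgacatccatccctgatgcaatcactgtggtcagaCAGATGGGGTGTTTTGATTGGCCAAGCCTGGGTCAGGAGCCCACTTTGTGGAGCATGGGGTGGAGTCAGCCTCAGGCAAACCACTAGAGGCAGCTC
HSD52, a non-coding RNA at chr1:59146758-59147057 (minus strand), is shown for H3K27ac in both mutants.
HSD52: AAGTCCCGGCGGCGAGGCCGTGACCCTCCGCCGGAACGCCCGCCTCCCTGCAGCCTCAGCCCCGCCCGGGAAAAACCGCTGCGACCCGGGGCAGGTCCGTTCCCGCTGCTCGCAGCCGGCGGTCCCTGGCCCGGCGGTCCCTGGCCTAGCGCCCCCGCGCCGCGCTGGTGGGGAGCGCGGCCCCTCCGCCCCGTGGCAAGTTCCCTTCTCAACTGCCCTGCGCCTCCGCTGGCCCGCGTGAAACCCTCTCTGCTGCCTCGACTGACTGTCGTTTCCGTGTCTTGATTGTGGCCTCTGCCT
LINC02313 at chr14:31944603-31944902 (plus strand) and LOC105370108 at chr13:22061444-22061743 (plus strand) are shown for HA in the tagged line.
LINC02313: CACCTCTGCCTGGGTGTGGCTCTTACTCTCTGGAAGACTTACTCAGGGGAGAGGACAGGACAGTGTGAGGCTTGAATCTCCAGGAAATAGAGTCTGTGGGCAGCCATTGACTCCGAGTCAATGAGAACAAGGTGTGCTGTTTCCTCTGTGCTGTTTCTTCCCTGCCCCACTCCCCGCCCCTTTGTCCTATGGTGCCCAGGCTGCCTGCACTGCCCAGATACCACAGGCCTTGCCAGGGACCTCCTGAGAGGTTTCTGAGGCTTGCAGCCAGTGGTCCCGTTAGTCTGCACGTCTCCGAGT
LOC105370108: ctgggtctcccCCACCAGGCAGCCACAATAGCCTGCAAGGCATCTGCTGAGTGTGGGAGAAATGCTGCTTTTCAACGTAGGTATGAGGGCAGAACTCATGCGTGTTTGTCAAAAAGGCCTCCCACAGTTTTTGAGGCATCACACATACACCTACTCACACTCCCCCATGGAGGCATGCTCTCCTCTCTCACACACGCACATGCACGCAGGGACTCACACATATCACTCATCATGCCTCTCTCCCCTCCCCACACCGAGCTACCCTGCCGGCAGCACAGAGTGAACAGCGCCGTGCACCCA

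Around the IL21R start, the regions chr16:27426354-27427067 and chr16:27427175-27428157 had H3K4me1 −log10 q of 25.7 and 20.7 and lay 23603 and 24424 bp from WT H3K27ac. H3K27ac regions were listed there in KO, at ranks 32997 and 44184 of 76242, and not in JmjD-dead. The first region met KDM6A in KARPAS (rank 7314 of 55867), and neither met KDM6A or HA in ARP1. The HSD52 start met H3K27ac at rank 34716 in KO and 60045 of 74063 in JmjD-dead, and no KDM6A or HA region. The LINC02313 start met HA at rank 15430 of 54338 in the tagged line and KDM6A in KARPAS at rank 5599, and LOC105370108 met HA at rank 3230. At LINC02313 and LOC105370108 no H3K27ac was listed in any genotype. Ranks run from 1, the strongest of a list by −log10 q.

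The 30 protein-coding windows had a median GC content of 68.2% against 62.3% for all such windows, and a median of 23 CpG against 21. The 37 non-coding windows had 61.0% GC and 14 CpG against 50% and 5 for all non-coding windows. Motifs were searched on both strands. TATAAA, the TATA box core, was in 5.97% of the 67 windows and 11.5% of all windows. CACGTG, the E-box, was in 11.9% and 7.27%, CCGGAAG, an ETS core, in 7.46% and 10.3%. The repeated interferon regulatory factor core was in 2.99% and 3.58%. Each share rests on 8 windows or fewer, and none of the 4 printed windows held any of the motifs.

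Of 1562 miRNA hairpins, 1 met one of the 2144 regions. MIR650, at chr22:22822776-22822871 (plus strand) among the lambda light chain variable genes, is printed with its seed in capitals.
hsa-miR-650: aGGAGGCAgcgcucucaggac
Its region, chr22:22822748-22823052, had an H3K4me1 −log10 q of 7.20. In KO it lay inside an H3K27ac region at chr22:22813969-22827095, ranked 312, which also met WT H3K27ac elsewhere along its length. In JmjD-dead it met an H3K27ac region at chr22:22822808-22822962, ranked 57487, and an H3K27me3 region ranked 30336 of 37236. No KDM6A, HA or H3K4me1 KO region was listed there.

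The unacetylated distal regions were weak and narrow H3K4me1 regions. Outside dense bins and input their median −log10 q was 6.25, median fold enrichment over the library mean 5.26 and median width 302.5 bp, and 75.6% held a single summit. The acetylated distal regions of the same places had medians of 15.8, 8.91 and 853 bp, with 27.6% of a single summit. Unacetylated regions of the same q limit at gene ends, outside dense bins and input, were much like the distal ones. Their medians were 6.25, 5.26 and 321 bp, with 73.3% of a single summit, so these traits were not particular to distal regions. The −log10 q moves in steps, since pileups are whole fragments, and 715 of the 2144 regions sat on the lowest step of 5.32. Only 112 reached 15. Within dense bins the strength was the same (median 6.25) and the width larger (496 bp). Of the 2144, 39.6% (37.6 to 41.8) lay inside a protein-coding gene, against 51.4% of the acetylated distal regions and 6.43% of the dense ones. WT H3K27ac was often near: 30.8% had it within 1 kb and 48.6% within 10 kb, with a median gap of 11.3 kb.

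**Figure D1:**
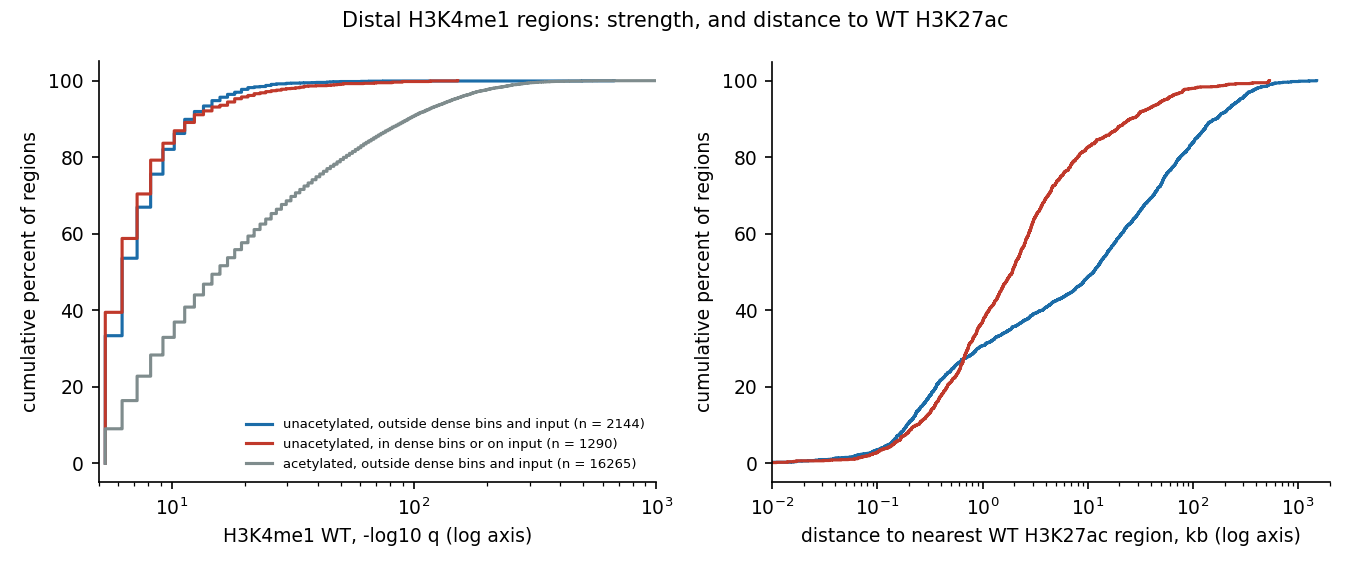
Left, cumulative percent of distal H3K4me1 regions (y axis) by WT H3K4me1 −log10 q (x axis, log scale) for unacetylated regions outside (blue, n = 2144) and inside dense bins or on input (red, n = 1290) and for acetylated regions outside (grey, n = 16265). Right, the same percent by distance in kb to the nearest WT H3K27ac region (log scale). The 2 unacetylated sets rise together on the left, with medians of 6.25, while the acetylated regions have a median of 15.8.

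The strongest unacetylated regions included some that were also listed in the KDM6A KO library or the WT HA library. A pair 36.4 and 34.8 kb from HGSNAT on chromosome 8 had −log10 q of 670.5 and 494.2. The pair met H3K4me1 in KO (ranks 26 and 42), and KDM6A in WT (31 and 29) and in KO (60 and 34). It also met HA in WT (127 and 93) and in the tagged line (68 and 33). Inside DCC, a netrin receptor gene, chr18:52792750-52792859 (−log10 q of 60.4) likewise met KDM6A in KO at rank 419 and HA in WT at rank 324. NPSR1 (chr7:34790950-34791065, −log10 q of 74.7) met H3K4me1 in KO at rank 98 and no other list. Other strong regions met HA of the tagged line and not of WT. ZBTB7C, a zinc finger gene, held a region of 2248 bp (chr18:48398897-48401144, −log10 q of 65.1) with HA in the tagged line at rank 6494. The region chr5:159825327-159827495, 37.6 kb from the adrenergic receptor gene ADRA1B, had a −log10 q of 45.2 and HA in the tagged line at rank 8795, with KDM6A at rank 41596 in KO and 89894 in WT. A region 28.6 kb from SP110, an interferon-induced nuclear body gene, had a −log10 q of 43.8, HA at rank 4071 and KDM6A in KARPAS at rank 2607, with ARP1 KDM6A at rank 14240 in KO and 35981 in WT. It met H3K27ac at the low rank of 75023 in KO and none in JmjD-dead.

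The regions were spread over many genes. The 2144 regions had 1585 protein-coding genes as their nearest, 7.94% of all. Of these, 1206 had a single region and 1 gene, IQSEC1, had 8. IQSEC1, an exchange factor for the GTPase ARF6, held all 8 inside its span, of which 4 met H3K27ac in KO and 2 in JmjD-dead. BCL2, the anti-apoptotic gene, had 6 regions, KIRREL3, a cell adhesion gene, 6 and COBL, an actin nucleator gene, 6. SI, the intestinal sucrase-isomaltase gene, had 6 at 369.8 to 1587 kb from it, and all 6 met H3K27ac in KO and 5 in JmjD-dead. The SI regions lay 154250 bp or more from any WT H3K27ac region.

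Among the gene lists, 5 of 20 B cell and germinal centre genes were nearest to a region (BACH2, BCL6, CD83, EBF1 and TCF4), as were 3 of 20 plasma cell genes (CD38, SDC1 and TNFRSF13B) and 7 of 20 shared lymphoid transcription factor genes, among them ETS1, FLI1, FOXP1, ID3 and RUNX3. The MHC class II list had 0 of 16, MHC class I 1 of 21 (HLA-F), and immune ligands 2 of 26 (CD47 and CD86). Markers of other lineages had 1 of 14 each in the T and NK, myeloid and epithelial lists. Long neuronal adhesion genes had 8 of 20, and housekeeping genes 1 of 20 (TFRC). Myeloma oncogenes and tumour suppressors had 4 of 20 (BCL2, MAF, MYC and RB1), and the list of KDM6A and its complexes 3 of 18 (KDM6A, KMT2C and WDR5). The KDM6A region, inside the gene, was in no other list. Acetylated distal regions were nearest to 24.6% of all genes, to 8 of 20 B cell, 15 of 20 lymphoid factor and 16 of 20 neuronal adhesion genes. Gene length and the space between genes differ between these lists, and their part was not tested.

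At B cell genes the regions were few and weak, and the mutants differed from gene to gene. CD83, a costimulatory surface protein gene, had 3, at −log10 q of 5.32, and all 3 met H3K27ac in KO and none in JmjD-dead. One of them, chr6:14353442-14353705, 216.5 kb from CD83 and 828 bp from WT H3K27ac, met a KO region at rank 12817 (−log10 q of 49.0). EBF1, which sets B cell identity, had 2, at −log10 q of 8.19 and 5.32, in no other list. BACH2 had 1 that met H3K27ac in KO only (rank 63506), and BCL6, the germinal centre repressor, 1 that met it in JmjD-dead only (rank 36136). At BCL2, 4 regions of 349 to 977 bp lay 10.6 kb or more outside the gene and met HA in the tagged line, at ranks 8460 to 12512, and not in WT. The strongest, chr18:63099538-63100353, had an H3K4me1 −log10 q of 18.2. Of these 4, 1 met KDM6A in WT, at rank 80707 of 90964, and 2 met H3K27ac in KO, at ranks 26154 and 59593. None did in JmjD-dead. SDC1, which encodes the plasma cell surface protein CD138, had 2, with H3K27ac in KO at ranks 60359 and 51889 and in JmjD-dead at 45600 and 38369. Both lay inside single KO regions of 237.1 kb for H3K4me1 and 329.0 kb for KDM6A, so at SDC1 an overlap with these KO lists does not mark the regions themselves. CD38 held 1 that met HA at rank 51000 of the tagged line, and TNFRSF13B, the TACI receptor gene, had 1 with H3K27ac at rank 39487 in KO and 69119 in JmjD-dead.

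KDM6A was less frequent on these regions than on acetylated distal ones. A KDM6A region of WT that met no KDM6A region of KO lay on 719 of the 3434 (20.9%), against a background of 18.1% of all H3K4me1 regions. Outside dense bins and input it lay on 251 of 2144 (11.7%, 10.4 to 13.1), against 14.2% of all H3K4me1 regions there and 37.0% of the acetylated distal ones. An HA region of the tagged line that met no HA region of WT lay on 532 of 3434 (15.5%), with a background of 20.2%. Outside, it lay on 430 of 2144 (20.1%, 18.4 to 21.8), against a background of 23.9% and 56.3% of acetylated distal regions. These backgrounds include acetylated regions. Unacetylated H3K4me1 regions of the same q limit at gene ends, outside dense bins and input, had lower shares than the distal ones, 5.53% (4.26 to 7.05) for KDM6A and 10.4% (8.68 to 12.4) for HA. Over all 38438 H3K4me1 regions without WT H3K27ac, weaker ones and dense bins included, the shares were 13.4% and 6.63%, against 20.9% and 15.5% of the 3434.

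The control lists were rarely met outside dense bins and often inside. Dense bins were found partly from these same lists, so this split was built in and the shares only describe it. KDM6A of KO cells was listed on 2.71% of the 2144 regions and on 55.2% of the 1290 in dense bins or on input. HA of WT cells was listed on 4.99% and 77.9%. For the full lists, KDM6A of WT was on 14.0% and 78.0%, and HA of the tagged line on 22.2% and 72.0%. The KDM6A KO library was deeper (20186824 tags) than the WT one (11898708) and its list shorter (44936 against 90964 regions). For HA, the WT library was shallower (16624794 tags) than the tagged one (25265497), yet its list was longer (78725 against 54338 regions).

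**Figure D2:**
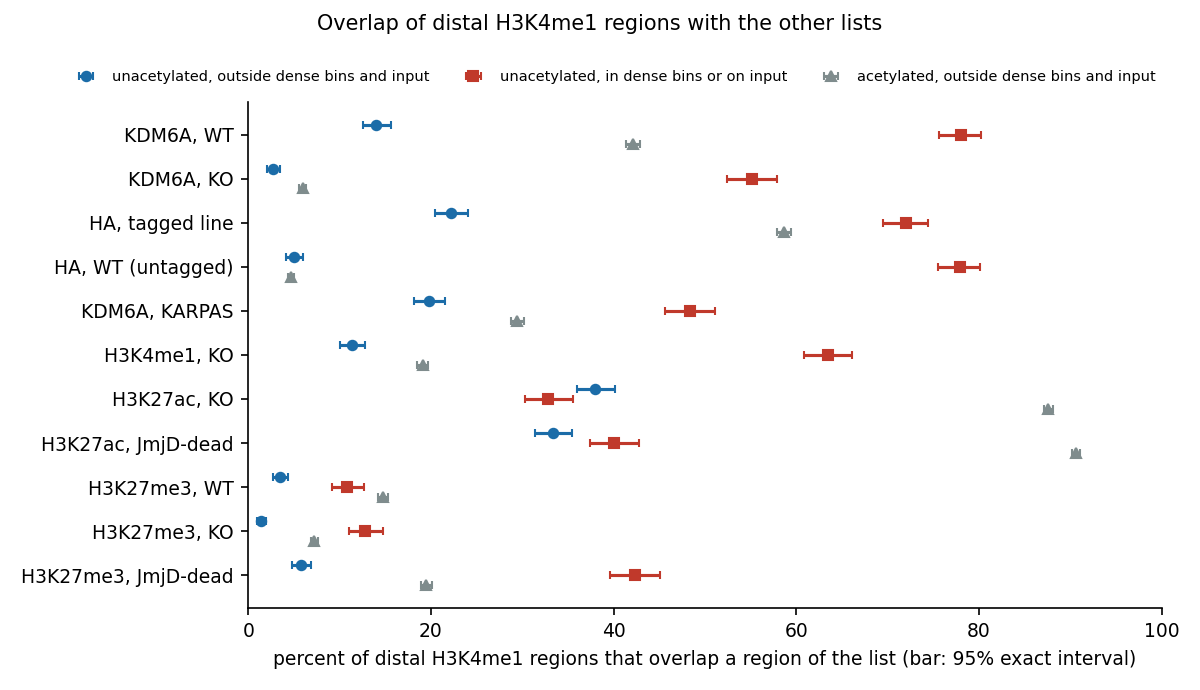
Percent of distal H3K4me1 regions (x axis) that overlap a region of each list (y axis), for unacetylated regions outside (blue circles) and inside dense bins or on input (red squares) and acetylated regions outside (grey triangles), with 95% exact intervals. KDM6A of WT cells lies on 14.0%, 78.0% and 42.1% of them. The dense bins were found partly from the KDM6A and HA lists.

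The gap was present at each strength of H3K4me1. At a −log10 q from 5 to 6, the KDM6A WT-only share was 9.93% (7.84 to 12.4) on unacetylated and 16.3% (14.5 to 18.3) on acetylated distal regions. From 15 upward it was 15.2% (9.10 to 23.2) and 48.2% (47.1 to 49.3). The HA tagged-only share was 17.1% (14.4 to 20.0) and 25.7% (23.5 to 28.0) in the lowest class and 27.7% (19.6 to 36.9) and 71.1% (70.1 to 72.1) in the highest. Acetylated regions of a class were wider, with medians of 339 against 261 bp in the lowest. With each region replaced by 500 bp at its summit, the KDM6A shares of the lowest class were 14.1% (11.7 to 16.9) and 18.6% (16.6 to 20.7), whose intervals overlap. In the highest class they were 15.2% and 36.8%, and the HA shares of the lowest class 19.6% (16.7 to 22.7) and 28.7% (26.4 to 31.1). Over 10 groups of equal size by rank, the KDM6A share of the 2144 ranged from 8.88% to 14.4% and the HA share from 14.5% to 28.8%, the highest in the strongest group.

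For KDM6A of KARPAS cells, another line, the order was the opposite among weak regions. In the lowest class it lay on 16.5% (13.9 to 19.4) of the unacetylated and 11.6% (9.99 to 13.3) of the acetylated regions of ARP1. From 6 to 8 it lay on 19.9% (17.0 to 22.97) and 15.7% (14.2 to 17.3), whose intervals overlap. From 8 to 15 the shares were 21.1% and 22.3%. In the highest class the order was 33.9% and 40.1%. With KARPAS regions that met no ARP1 HA WT or KDM6A KO region, the lowest class gave 12.6% (10.2 to 15.2) and 9.67% (8.21 to 11.3), whose intervals overlap. HA of WT cells lay on 3.50% and 1.29% of the lowest class. Over all strengths KARPAS KDM6A lay on 30.5% of the 3434 (background 19.5%), on 19.8% of the 2144 (background 16.3%) and on 29.4% of acetylated distal regions.

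**Figure D3:**
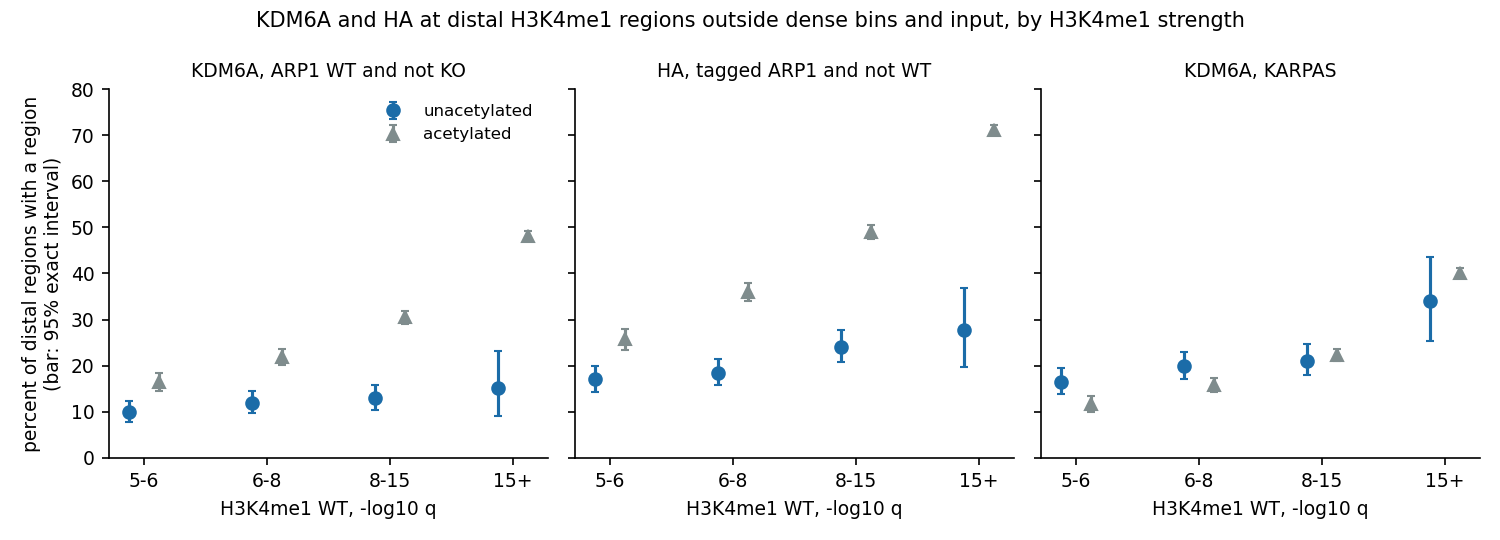
Percent of distal regions outside dense bins and input with a region of each list (y axis, bars are 95% exact intervals) in 4 classes of H3K4me1 −log10 q (x axis), for unacetylated (blue circles) and acetylated regions (grey triangles). KDM6A and HA of ARP1 lie lower on unacetylated regions in each class (9.93% against 16.3% and 17.1% against 25.7% in the lowest), while KARPAS KDM6A lies higher in the lowest class (16.5% against 11.6%).

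The next ranking used KDM6A regions of WT that met none of KO, which leaves out the higher ranked pair near HGSNAT. By it, the first unacetylated region lay inside TERT, the gene of telomerase's catalytic subunit (chr5:1269047-1269381). KDM6A of WT was listed there at rank 144 (−log10 q of 111.6), and no KDM6A of KO, KARPAS or HA of either line. It met H3K27ac at rank 24300 in KO and 34045 in JmjD-dead, 3292 bp from WT H3K27ac. A region 33.2 kb from MPP7, a membrane scaffold gene (chr10:28368415-28368843), met both KDM6A of WT at rank 569 and HA of the tagged line at rank 1674, with neither control, and no H3K27ac in a mutant. It lay 205 bp from WT H3K27ac. Of the 10 highest ranked for KDM6A of WT that met none of KO, all but the one 525.5 kb from MMUT lay within 4281 bp of WT H3K27ac. The region 96.5 kb from CALCOCO1, a coiled-coil coactivator gene (chr12:53823976-53825066), lay 66750 bp from WT H3K27ac and met HA at rank 1023, KDM6A of WT at rank 19822 and H3K27ac in KO at rank 15132, and none in JmjD-dead. Of the HA regions of the tagged line that met none of WT, the highest ranked (963) was 255.1 kb from SLITRK1, a neuronal membrane gene (chr13:84137616-84137754). It had KDM6A of WT at rank 14542 and WT H3K27ac 153 bp away. A region 70.7 kb from PHLPP1, a phosphatase gene that acts on AKT, met HA at rank 1816 and KARPAS KDM6A at rank 909. A region 103.6 kb from ETV6, an ETS repressor gene, met HA at rank 2176, KDM6A of WT at 16703 and of KO at 26094.

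H3K27ac was listed on about 36% of these regions in each mutant at the authors' threshold. With overlapping H3K27ac regions held to a −log10 q of at least 5, it was listed on 19.0% in KO and 24.5% in JmjD-dead. No background was computed at this stricter limit, so these shares cannot be set against the backgrounds below. At the authors' threshold, in KO it was listed on 1239 of 3434 (36.1%, 34.5 to 37.7), and in JmjD-dead on 1233 (35.9%, 34.3 to 37.5). The background was 22.6% in KO and 19.5% in JmjD-dead, over all 38438 H3K4me1 regions without WT H3K27ac, which include weaker ones and those near genes. Outside dense bins and input the shares were 815 of 2144 (38.0%, 36.0 to 40.1) and 716 (33.4%, 31.4 to 35.4), with backgrounds of 23.6% and 18.3%. Unacetylated H3K4me1 regions of the same q limit at gene ends, outside dense bins and input, gained it in 47.7% (44.7 to 50.7) in KO and 34.5% (31.7 to 37.4) in JmjD-dead. KO and JmjD-dead are both set against the same WT list, so their gains are not independent and their overlap is not given.

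The reverse comparison starts from regions of the WT H3K4me1 list, 88.4% of them acetylated in WT, and this choice favours WT. Of the distal regions outside dense bins and input without H3K27ac in KO, 60.3% (58.6 to 62.0) carried it in WT, and of those without it in JmjD-dead, 51.7% (49.9 to 53.5). Among all distal regions there, 81.8% had H3K27ac in KO and 83.9% in JmjD-dead. Of those acetylated in WT, 12.4% (11.9 to 12.9) had none in KO and 9.39% (8.95 to 9.85) none in JmjD-dead. How far 2 WT libraries would differ in the same way was not tested, as there is 1.

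The gained H3K27ac regions lay near the middle of the KO list and lower in the JmjD-dead list. For gains outside dense bins and input, the KO list of 76242 gave a median rank of 38456 and the JmjD-dead list of 74063 one of 44656, and 67 (8.22%) and 33 (4.61%) of the gained regions met one of the top 25% of the list. The best overlapping region lay below the middle of its list for 50.3% of gains in KO and 68.0% in JmjD-dead. The H3K27ac region met no WT H3K27ac region anywhere along its length in 86.1% of gains in KO and 89.0% in JmjD-dead. In the rest it met WT H3K27ac elsewhere along its length.

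Outside dense bins and input, stronger and wider H3K4me1 went with more gain in KO, and less clearly in JmjD-dead. For the 2144 regions the KO share was 33.7% (30.2 to 37.3) at a −log10 q from 5 to 6, 35.7% from 6 to 8, 42.7% from 8 to 15 and 55.4% (45.7 to 64.8) from 15 upward. The JmjD-dead share was 29.5% (26.2 to 33.0), 31.8%, 38.5% and 41.1% (31.9 to 50.8). By width, the KO share of the 2144 went from 24.8% under 200 bp to 54.8% from 800 bp. The JmjD-dead share was 26.6% (22.9 to 30.5) under 200 bp, 34.5% from 200 to 400, 37.8% from 400 to 800 and 35.5% (28.0 to 43.6) above. Its end intervals overlap. A wider region has more room for an overlap, and that part was not tested. Regions over 50 kb from WT H3K27ac gained in 41.9% (37.8 to 46.0) in KO and 34.3% (30.4 to 38.3) in JmjD-dead, and those within 1 kb in 38.9% and 39.2%. Through an H3K27ac region that met no WT region, those within 1 kb gained in 21.97% in KO and 27.4% in JmjD-dead, and the shares over 50 kb were the same as before.

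**Figure D4:**
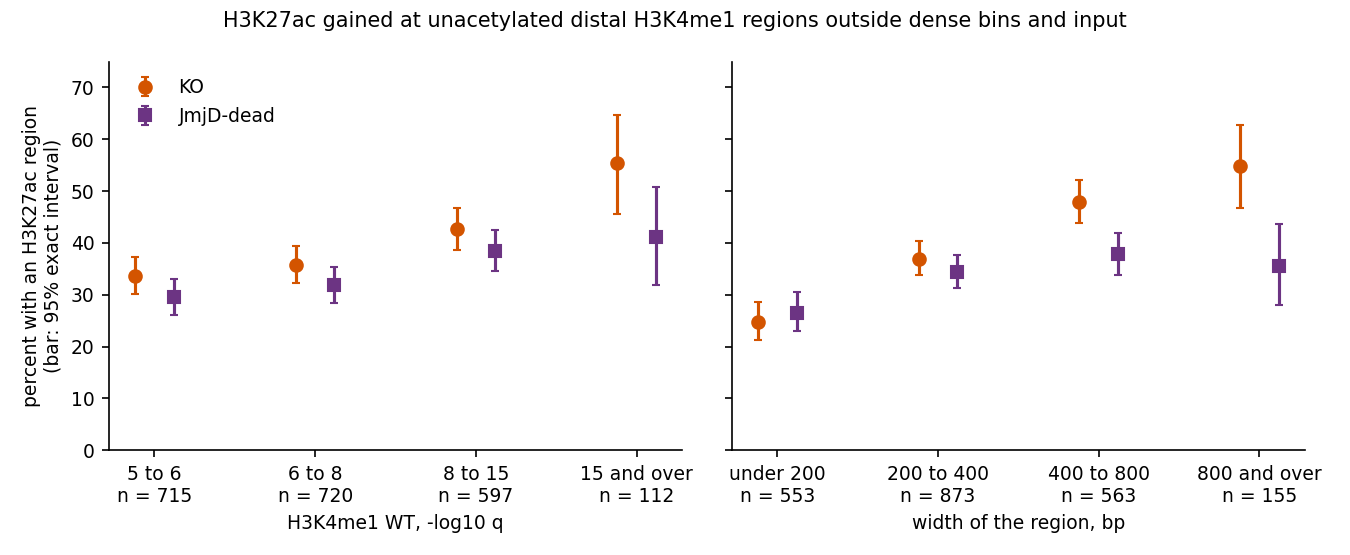
Percent of the 2144 unacetylated distal regions with an H3K27ac region (y axis, bars are 95% exact intervals) in KO (orange circles) and JmjD-dead (purple squares), by class of H3K4me1 −log10 q (left) and width in bp (right). The KO share goes from 33.7% to 55.4% by strength and the JmjD-dead share from 29.5% to 41.1%.

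HA on a region went with a higher share of gain in JmjD-dead, while in KO the intervals overlapped. In JmjD-dead, H3K27ac was listed on 40.5% (35.8 to 45.3) of the 430 regions with tagged-only HA and 31.6% (29.4 to 33.9) of the others. In KO the shares were 40.5% (35.8 to 45.3) and 37.4% (35.1 to 39.7). For WT-only KDM6A, they were 40.2% (34.1 to 46.6) and 32.5% (30.4 to 34.7) in JmjD-dead, whose intervals overlap, and 40.2% and 37.7% in KO. The difference between the mutants was not tested. KARPAS KDM6A gave 39.3% (34.6 to 44.1) against 31.9% (29.7 to 34.2) in JmjD-dead, whose intervals did not overlap, and 42.6% (37.8 to 47.4) against 36.9% (34.6 to 39.2) in KO, whose intervals did. HA was more frequent on stronger H3K4me1 regions, and the part of strength in these shares was not tested.

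The next regions are gains whose H3K27ac region met no WT region anywhere, ordered by its rank. In KO the first was chr13:19109155-19109988, 63.8 kb from TUBA3C, an alpha tubulin gene with near-identical copies, at rank 9509 (−log10 q of 74.2) and with none in JmjD-dead. Next came chr2:231642267-231643861, 48.0 kb from TEX44, at rank 11250 in KO and 50865 in JmjD-dead, with HA of the tagged line at rank 6585, and chrX:64842811-64843538, 72.3 kb from ZC4H2, at rank 11538 in KO alone with KARPAS KDM6A at rank 6313. FAT3, an atypical cadherin gene, held one at rank 13395 with HA at rank 11042. The first 10 of KO lay 17839 bp or more from WT H3K27ac. Gains through a region that also reached WT H3K27ac could rank higher, as in GALNT17, a glycosyltransferase gene (chr7:71443886-71444550), at rank 7549 in KO and 80 bp from WT H3K27ac. In JmjD-dead the highest was in BBS9, a gene of the ciliary BBSome (chr7:33527490-33527737), at rank 10331 in JmjD-dead (−log10 q of 79.9) and 16710 in KO (30.3), without KDM6A or HA in ARP1 and 175103 bp from WT H3K27ac. ZNF532 held one at rank 15222 in JmjD-dead and 30943 in KO. MID1, an X-linked ubiquitin ligase gene, held one at 19320 and 24537.

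The HOMER2 region chr15:82888138-82888614 held several of these features. HOMER2 encodes a scaffold protein of synapses. Its H3K4me1 −log10 q was 49.7 in WT and no H3K4me1 was listed in KO. H3K27ac was listed at rank 18640 in KO (−log10 q of 23.7) and 19480 in JmjD-dead (27.8), with WT H3K27ac 52356 bp away. KDM6A of WT was listed at rank 17200 and not in KO, HA of the tagged line at 4337 and of WT at 21344, and KARPAS KDM6A at 29983.

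Most of the regions had no H3K4me1 region in KO, as did 75.3% of all WT H3K4me1 regions. A KO H3K4me1 region was listed on 1062 of 3434 (30.9%), against a background of 24.7%. Outside dense bins and input it was on 243 of 2144 (11.3%, 10.0 to 12.8), where 85.5% of all H3K4me1 regions had none, and in dense bins or on input on 63.5%. At a −log10 q from 5 to 6 the share was 10.9% (8.72 to 13.4) on unacetylated and 7.83% (6.51 to 9.33) on acetylated distal regions, and from 15 upward 17.0% (10.5 to 25.2) and 27.7% (26.7 to 28.6). The regions were chosen on the WT list, so a lower KO share is partly fixed by the choice, and the KO library was shallower (25570686 against 34023091 fragments). The KO list held 80845 regions against 95729 in WT. Whether an absent KO region marks a loss of H3K4me1 was not tested. Strong ones without KO H3K4me1 included NUDT4 (chr12:93394612-93394717, −log10 q of 46.7, no other mark), BDNF, a neurotrophin gene (chr11:27665402-27665974, −log10 q of 39.4, H3K27ac at rank 30425 in KO and 40401 in JmjD-dead), and COL11A1, a collagen gene (chr1:102933345-102934261, −log10 q of 29.7, H3K27ac at 23637 and 27077), the last lying 591387 bp from WT H3K27ac.

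H3K27me3 was seldom listed on the regions outside dense bins. Of all 3434, it lay on 6.23% in WT (background 10.6%), 5.65% in KO (background 7.93%) and 19.5% in JmjD-dead (background 20.1%). Of the 2144 it lay on 3.45%, 1.35% and 5.78%, with backgrounds of 7.66%, 4.35% and 12.0%, and it lay on 14.7%, 7.21% and 19.5% of acetylated distal regions. These backgrounds include acetylated regions. Over all 38438 H3K4me1 regions without WT H3K27ac the shares were 3.82%, 2.92% and 13.4%, lower than those of the 3434. Unacetylated regions of the same q limit at gene ends, outside dense bins and input, had 3.72%, 2.54% and 6.62%. In dense bins or on input the shares of the distal regions were 10.9%, 12.8% and 42.3%. The H3K27me3 libraries were the shallowest of the marks and their lists short (11865 to 37236 regions), and the part of depth in these shares was not tested. The highest WT rank, 482, was 209.4 kb from POU5F1B, a POU factor retrogene (chr8:127203761-127204085), with H3K27me3 at rank 2326 in KO and 16347 in JmjD-dead. A region 711.8 kb from MYC, the growth-promoting transcription factor gene (chr8:128454729-128454864), had rank 1940 in the WT list, with 1362 for KO and 850 for JmjD-dead. It also met HA of WT cells at rank 1985, H3K27ac in both mutants, and a KDM6A region of WT that met none of KO. The second highest was in SLC37A1, a sugar phosphate transporter gene (chr21:42526438-42526720), at 1743, with none in either mutant. STOX1 had one at 14.7 kb (rank 3393 in WT and 8018 in KO) and MYO1D, a myosin gene, one at rank 3865 in WT only.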

How the data were processed

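Regions of 16 human ChIP-seq libraries in GRCh38 were analysed, 1 library per group; mouse libraries were not used. Per the submitters' processing notes, tools were Trimmomatic, FastQC, MultiQC, Bowtie2 and MACS2. Per the file headers, the authors called peaks with MACS 2.2.7.1 (H3K27ac, H3K27me3, input) or 2.1.1.20160309 (H3K4me1, KDM6A, HA) at q 0.05, without a control. Per the file headers, each row gives the deposited pileup signal, fold enrichment over the library mean, and −log10 p and −log10 q.

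Rows with equal coordinates were merged, chromosomes 1 to 22 and X kept, and lists ranked by −log10 q. Overlap meant at least 1 bp. Gene positions came from RefSeq (GRCh38.p14). Shares carry exact Clopper-Pearson 95% intervals; no test was possible with 1 library per group. Backgrounds are the same shares over all H3K4me1 regions, and for H3K27ac in the mutants over those without WT H3K27ac. Named regions were the 10 highest ranked per list outside dense bins and input, those of the genes with most regions, and listed genes. The overlap code recovered simulated overlaps. Scripts ran in Python 3.11.15 with scipy 1.17.1, pandas 2.3.3, matplotlib 3.10.9 and numpy 2.4.6. Regions and gene lists were chosen with earlier results of these data known. Some listed genes are not reported here.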

Additional observations from a re-analysis of the deposited data

How the results depend on the processing

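The values below are set beside 3434 regions, and shares of 36.1% (H3K27ac in KO), 35.9% (H3K27ac in JmjD-dead), 20.9% (KDM6A WT-only), 15.5% (HA tagged-only) and 30.9% (H3K4me1 in KO), always in that order. A −log10 q of at least 10 left 596 regions with 40.1%, 37.8%, 17.3%, 18.6% and 34.7%. Outside dense bins and input, 2144 regions had 38.0%, 33.4%, 11.7%, 20.1% and 11.3%. With overlapping regions also held to a −log10 q of at least 5 the shares were 19.0%, 24.5%, 15.2%, 9.73% and 19.3%, and with at least 50% of a region covered 24.2%, 21.8%, 9.41%, 7.92% and 22.3%. Over 50 kb from gene ends, JmjD-dead H3K27ac was 37.7%, KDM6A 26.6%, HA 14.3% and KO H3K4me1 36.3%. Without regions within 1 kb of WT H3K27ac, the H3K27ac shares were 34.1% in KO and 32.8% in JmjD-dead. With lists cut to equal length they were 33.1% and 33.3%. With 500 bp at the summit the HA share was 17.4%.

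Both further settings below were chosen after seeing the data and do not use the KDM6A or HA lists. Without input regions and bins dense in them, JmjD-dead H3K27ac was 32.4%, KDM6A 14.8%, HA 18.6% and KO H3K4me1 21.8%. Within 500 kb of a protein-coding gene they were 31.8%, 11.6%, 19.5% and 19.5%. The alternatives not printed moved the value by less than its counting interval, or the number of regions by less than 1.5 times. No paired analysis was possible because each group has 1 library. H3K27me3 and input depth limit what could be listed.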

Other observations

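Around SDC1, chr2:19762816-20263199 (500.4 kb) was covered to 99.4% by KO H3K4me1 regions and to 99.9% by KO KDM6A regions, against 13.9% for WT H3K4me1 and 1.01% for WT KDM6A. H3K27ac regions covered 12.5% (WT), 12.2% (KO) and 12.8% (JmjD-dead) of it, and KO H3K27me3 2.00%. The KO input had 7 regions there and the WT input 3. Of 4 unacetylated distal H3K4me1 regions in the segment, all 4 met KO H3K4me1. The title of the KO H3K4me1 library and the file header of the KO KDM6A library carry E4, which those of the KO H3K27ac library do not. The cause was not tested.

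The 39 regions from 12 to 13 Mb of chromosome 2 differed from other bins of many regions. HA was listed on 24 of them in the tagged line and 13 in WT, and KDM6A on 8 in WT and 1 in KO.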
